A study of Bos taurus with 16 samples.

Results

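Transcripts of the cytosolic ribosomal proteins were examined in the bovine corpus luteum, a gland that grows from the emptied ovarian follicle and secretes progesterone, in cycling and in pregnant cows. Probes were taken by name, as all non-control spots whose gene symbol is RPL or RPS with a number, or RPLP0, RPLP1 or RPLP2, without the RPS6 kinases. No spot matched RPSA. This gave 65 spots for 58 genes, out of 15208 non-control spots and 5880 genes named on the array, and the brightest spot stood for each gene. Of the 58, 33 belong to the large subunit and 23 to the small subunit, and 2 (RPL3L and RPS27L) are paralogues that resemble a ribosomal protein. The names were checked where an accession allowed it: 23 of the 58 members matched a RefSeq accession, and all 23 carried the same symbol there.

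The glands came from Japanese Black cows, 4 animals in each of 4 groups, with 1 single-colour array (Cy3) per animal and 16 arrays in all. Cyclic glands, from non-pregnant cows, were taken on days 10 to 12 of the oestrous cycle and served as the control. The 3 pregnant groups were taken on days 20 to 25, 40 to 45 and 150 to 160 of gestation, counted with insemination as day 1. The ovaries were collected at slaughter, and no drug, hormone or genetic change is named for any group. Because the control glands were younger than all pregnant glands, the age of a gland and pregnancy cannot be told apart. Each array measured whole-gland RNA after linear amplification of 400 ng of total RNA, so fewer cells of a type and less RNA per cell cannot be told apart either.

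A cytosolic ribosome is built from a large and a small subunit, each a core of ribosomal RNA with proteins bound to it. Messages for these proteins are among the most abundant in most cells and carry a pyrimidine tract at their start (the TOP motif), through which the kinase mTOR sets their translation. The luteal gland makes much protein while it grows and much steroid once mature. The P-stalk proteins RPLP0, RPLP1 and RPLP2 recruit the elongation factors, and RPS6, a protein of the small subunit, is the classical substrate of S6 kinase.

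The probes are 60-base oligonucleotides, and their letters set how far a spot can be read as 1 gene. The spot named RPL24 and the second spot named RPL30 carry the same sequence, whereas the brighter RPL30 spot does not.
RPL24: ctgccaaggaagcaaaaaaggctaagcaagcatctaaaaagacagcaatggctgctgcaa
RPL30, second spot: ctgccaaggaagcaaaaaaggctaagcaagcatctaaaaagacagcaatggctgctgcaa
RPL30, brightest spot: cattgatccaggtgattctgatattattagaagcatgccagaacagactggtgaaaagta
Both RPS10 spots share 57 of their 60 bases in 1 run. Their bases 31 to 60 are shown with the 2 bases that differ in capitals.
RPS10, brightest spot: gttgaaagggattgttttgtgttgaatAAa
RPS10, second spot: gttgaaagggattgttttgtgttgaatTTa
The following probes are shown because the values below turn on them. RPS15A and RPS6 lay in a dark area of 1 array, RPL6 and the brightest RPS12 spot gave the largest positive changes, and the second RPS12 spot is set beside the first.
RPS15A, brightest spot: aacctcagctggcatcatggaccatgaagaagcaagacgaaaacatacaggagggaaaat
RPS6: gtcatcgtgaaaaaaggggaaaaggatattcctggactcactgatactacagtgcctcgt
RPL6: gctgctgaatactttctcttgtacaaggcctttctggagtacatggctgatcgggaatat
RPS12, brightest spot, bases 1 to 30: acagaaaaaggaaataagccataattaagc
RPS12, second spot: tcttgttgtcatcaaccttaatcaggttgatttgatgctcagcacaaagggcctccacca
No transcript sequence was used here, so the strand of a probe and its place in the message were not checked. The strand is in doubt for RPL26 and the second RPS12 spot, and for RPL6 it is in doubt whether the letters belong to that gene. A dim spot is therefore not read as a scarce message, and levels of different spots are not compared.

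In base composition the 58 probes had a median GC content of 45.0%, against 43.3% over all 11941 probes tested. The hexamer AATAAA, the common polyadenylation signal, was searched on the printed strand, with TTTATT as its other strand. AATAAA was found in 13 of the 58 members (22.4%) and in 12.4% of the tested probes. All 13 were members whose mean level lay above the array's 75th percentile. TTTATT was found in 1 member and in 4.18% of the tested probes. A match describes the letters only.

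Levels are log2 of the deposited processed signal minus the array's own 75th percentile, so 0 is the brightness below which 75% of an array's probes lie. That percentile was a signal of 2020 to 4288, and 71.9% to 79.6% of probes per array were well above background. Of the members, 57 were well above background on all 16 arrays and RPL3L on 15, and no member spot was saturated. The mean level was above the 75th percentile for 49 members and below it for 9 (RPL3L, RPL6, RPL21, RPL26, RPL28, RPLP0, RPS3A, RPS12 and RPS27). The spots of these 9 are dim, and the limit on dim spots given with the probe letters holds wherever they are named. Spots with an outlier flag were left out, which removed 22 member values in 12 genes. The tissue label was met by its markers: in cyclic glands STAR, HSD3B1 and CYP11A1, which carry out steroid synthesis, stood at 7.31 ± 0.66, 7.04 ± 0.43 and 6.41 ± 0.24 (SD, n = 4).

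Array 4 of days 20 to 25 stood apart, and most values at that stage that it moves by much are given with and without it. It had a dark area in its middle, made of 19 of 144 blocks of spots and holding 1755 tested probes. Relative to each probe's median over all arrays, these probes had a median of -0.88, while the other 10186 probes had 0.19. On the other 15 arrays the median of the same area lay between -0.16 and 0.10. The members divided with their place. Of the 9 members inside the area, RPS29 deviated by -1.71, RPS6 by -1.53, RPS15A by -1.33, RPL26 by -1.32 and RPL19 by -1.05 from their own means. RPL37 (-0.33), RPL29 (-0.30) and RPL3L (-0.16) deviated less, and RPS2, at its edge, lay at 0.30. Outside the area, 42 of 47 members on this array were above their own mean, with a median of 0.42.

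**Figure D1:**
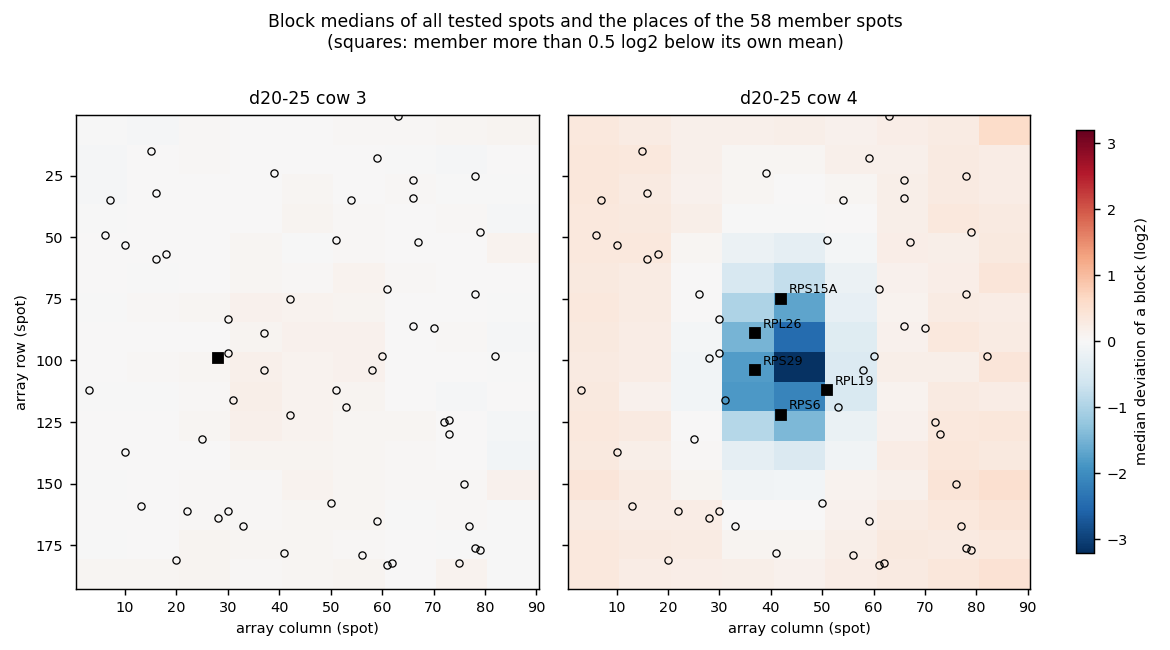
Array row and column of the 58 member spots on arrays 3 and 4 of days 20 to 25, over the median deviation of all tested spots in blocks of 12 rows by 10 columns (log2, colour scale). Squares mark members more than 0.5 below their own mean: RPS29, RPS6, RPS15A, RPL26 and RPL19 lie in the dark middle of array 4, and RPL9 is the square on array 3.

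No ribosomal protein transcript passed the test at any stage of pregnancy. The test was limma's moderated test over all 16 arrays, with Benjamini-Hochberg adjustment over all tested probes and an adjusted p under 0.05 as the threshold. Against cyclic glands, 0 of 58 members were called at days 20 to 25, where 0.293% of all tested probes were called. At days 40 to 45, 0 of 58 were called against 1.23% of all probes. At days 150 to 160, 0 of 58 were called against 7.98% of all probes, a share that was smaller among brighter probes. Of the 3762 tested probes whose mean lay above the 75th percentile, 0.159%, 0.744% and 6.22% were called at the 3 stages. The F test over the 4 groups likewise called 0 of 58, against 3.85% of all probes. The lowest adjusted p of any member was 0.345, 0.188 and 0.119 at the 3 stages and 0.253 in the F test. Without array 4 of days 20 to 25 the count stayed at 0 in each, and the lowest adjusted p was 0.364 at days 20 to 25, for RPL38, and 0.202 in the F test. Of all tested probes, 12, 197 and 1106 were then called at the 3 stages and 503 in the F test. Without adjustment, 1, 2 and 3 members had p under 0.05 at the 3 stages and 0 in the F test, against 14.1%, 14.7%, 23.5% and 20.3% of all probes.

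The fitted changes were small, and most of their intervals lay within 2-fold. No member changed by 2-fold, as 4.29%, 5.05% and 7.48% of all tested probes did at the 3 stages. Of the 58, 52, 52 and 50 (89.7%, 89.7% and 86.2%) lay within 1.2-fold of the cyclic level at days 20 to 25, 40 to 45 and 150 to 160, and 53 did at days 20 to 25 without array 4. Among all tested probes, 57.9%, 61.7% and 51.8% did, and among those above the 75th percentile 70.9%, 73.2% and 63.7%. The shares of all probes at days 20 to 25, also that for 2-fold, include array 4 and are not given without it. The standard error had a median of 0.17 to 0.18 for the members and 0.21 for all probes. The 95% interval of the change lay wholly within 2-fold for 53, 56 and 57 of the 58 members. It lay within 1.5-fold for 44, 42 and 37. For the remaining genes the interval reached past 1.5-fold.

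**Figure D2:**
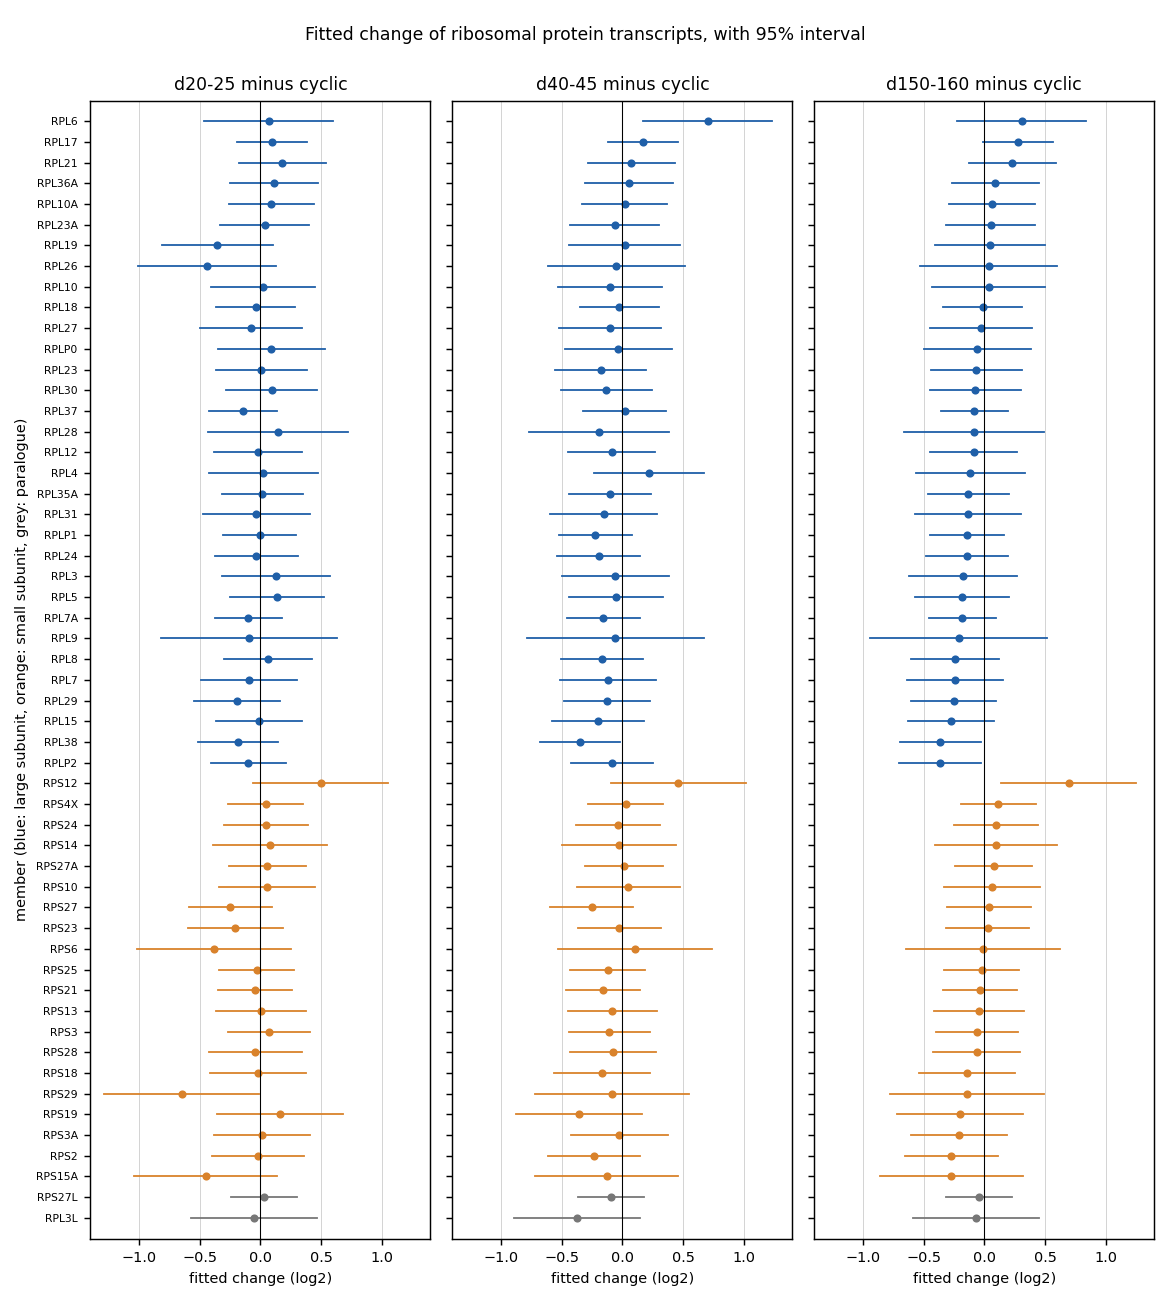
Fitted log2 change of 54 of the 58 members from cyclic glands at the 3 stages, as points with 95% intervals (4 arrays a group, fewer where a spot was left out), large subunit in blue, small subunit in orange and paralogues in grey. All points lie within 2-fold, and the points farthest from 0 are RPS29 at days 20 to 25, RPL6 at days 40 to 45 and RPS12 at days 150 to 160.

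**Figure D3:**
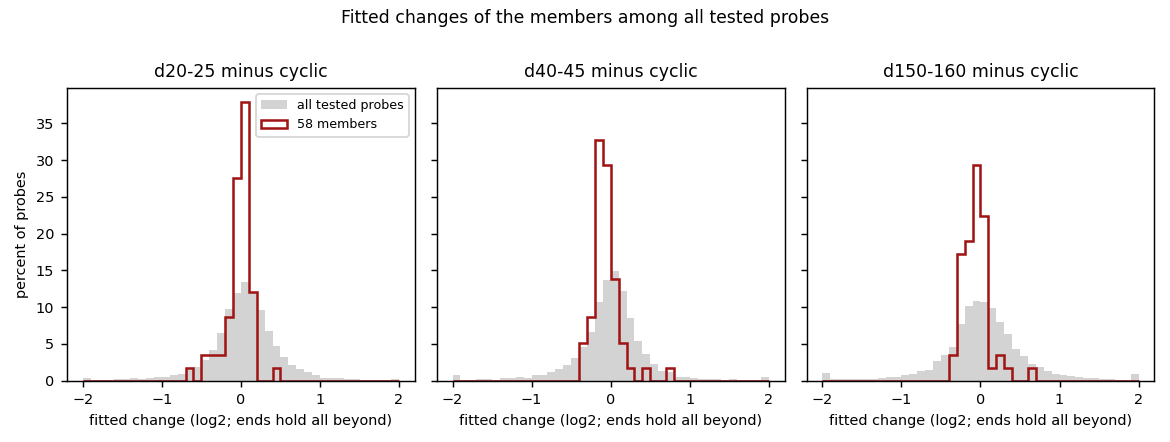
Share of probes, in percent, by fitted log2 change from cyclic glands, for all tested probes (grey) and the 58 members (red line), at each stage. The members crowd around 0, where 52, 52 and 50 of them lie within 1.2-fold.

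The median change over the 58 members was 0.01 at days 20 to 25, -0.09 at days 40 to 45 and -0.07 at days 150 to 160, beside 0.05, 0.01 and 0.03 over all tested probes. The change was negative for 28, 44 and 40 members (48.3%, 75.9% and 69.0%), against 42.9%, 47.8% and 47.3% of all probes. Between cows, the member median of an array had an SD of 0.08 in cyclic glands and of 0.22, 0.16 and 0.21 in the 3 pregnant groups. The SD at days 20 to 25 rests on array 4, with a member median of 0.39, against -0.08 to -0.03 on the other arrays of that stage. Without array 4 of days 20 to 25, the median at that stage was -0.09, and 47 of 58 changes were negative. Over all tested probes the median was then 0.04, with 6622 of 11940 changes positive. The sign also differed between the array slides. Within slide 1 (cows 1 and 2 of each group) the medians were -0.08, -0.21 and -0.12, and within slide 2 (cows 3 and 4) 0.07, 0.02 and 0.03. Over all tested probes they were 0.03, 0.01 and 0.05 within slide 1 and 0.10, 0.02 and 0.02 within slide 2. The slide 2 value at days 20 to 25 includes array 4, and cow 3, the other cow there, had a member median of -0.08. The 3 contrasts share the cyclic arrays, so they are not separate evidence.

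Among the P-stalk genes, RPLP2 had the largest difference, at days 150 to 160. Its levels were 6.49, 6.50, 6.70 and 6.58 in cyclic cows 1 to 4 and 6.29, 5.88 and 6.43 in cows 1, 2 and 4 of days 150 to 160, the spot of cow 3 being left out. All 3 pregnant cows lay below all 4 cyclic cows, and cow 2 was the lowest. The change was -0.37 (95% interval -0.70 to -0.03, adjusted p = 0.181). At the earlier stages RPLP2 changed by -0.10 and -0.08. RPLP1 changed by -0.01, -0.22 and -0.14 at the 3 stages and RPLP0, the scaffold of the stalk, by 0.09, -0.03 and -0.06, with groups that overlapped. The RPLP0 spot is dim, with a mean level of -3.47 in cyclic glands. Without array 4, the values at days 20 to 25 were -0.15 for RPLP2, -0.11 for RPLP1 and 0.03 for RPLP0.

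In the rest of the large subunit, RPL38 was the member with negative values at all 3 stages and an unadjusted p under 0.05 at the later ones. RPL38 is a small protein of the large subunit known for its part in the translation of Hox messages. Its levels were 5.41, 5.15, 5.36 and 5.26 in cyclic cows and 4.81, 4.85, 5.03 and 5.12 at days 40 to 45. All 4 pregnant cows lay below the lowest cyclic cow, by a narrow margin. The change was -0.35 (-0.68 to -0.02, adjusted p = 0.313). At days 150 to 160 its levels were 4.92, 4.69, 4.93 and 5.20, which overlapped the cyclic range, and the change was -0.36 (-0.69 to -0.03, adjusted p = 0.172). At days 20 to 25 they were 4.91, 5.02, 4.96 and 5.55, and the change was -0.19. The first 3 cows of that stage lay below the cyclic range and array 4 above it, and without array 4 the change was -0.33 (adjusted p = 0.364).

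RPL6, whose spot is dim, gave the largest positive value of the large subunit. Levels were -4.41, -3.96, -3.69 and -3.92 in cyclic cows and -4.15, -3.18, -2.75 and -3.09 at days 40 to 45. Cows 2 to 4 of that stage lay above all cyclic cows and cow 1 lay within their range. The change was 0.70 (0.17 to 1.23, 1.63-fold, adjusted p = 0.188). Left without cow 1 of days 40 to 45, it was 0.99 with an adjusted p of 0.0406, so this 1 animal decides the call. At days 20 to 25 and 150 to 160 RPL6 changed by 0.07 (0.01 without array 4) and 0.31. Whether this probe reads the RPL6 message was not checked.

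RPL17, which lines the exit of the peptide tunnel, had positive values at all stages (0.10, 0.17 and 0.28), the last with an interval of -0.01 to 0.56. A spot under another name that shares 30 bases with it changed by 0.14, -0.00 and 0.13. RPL15 changed by -0.01, -0.20 and -0.28 and RPL29 by -0.19, -0.13 and -0.25. RPL4 changed by 0.02, 0.22 and -0.12, RPL21 by 0.18, 0.07 and 0.23, and RPL28 by 0.14, -0.20 and -0.09. RPL5, which with RPL11 binds the p53 regulator MDM2, changed by 0.13, -0.06 and -0.18. None of these had an unadjusted p under 0.05. Without array 4, the values at days 20 to 25 were 0.00 for RPL17, -0.12 for RPL15, -0.11 for RPL29, 0.16 for RPL4, 0.12 for RPL21, 0.02 for RPL28 and -0.01 for RPL5. The sign of RPL5 thus turned. RPL19 and RPL26, both inside the dark area, changed by -0.36 and -0.44 at days 20 to 25, and by -0.10 and -0.11 without array 4.

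In the small subunit the most negative value was that of RPS29 at days 20 to 25, and it rests on array 4. RPS29 levels were 5.36, 5.45, 5.76 and 5.40 in cyclic cows and 5.30, 5.11, 5.39 and 3.57 at days 20 to 25. Cows 1 to 3 lay near the cyclic range and only array 4 far below it. The change was -0.65 (-1.28 to -0.01, adjusted p = 0.345) with array 4 and -0.22 without it. RPS6 had levels of 5.19, 4.65, 4.69 and 4.63 in cyclic cows and 4.87, 4.90, 4.67 and 3.19 at days 20 to 25. Its change was -0.38 with array 4 and 0.03 without it, and at the later stages it was 0.10 and -0.01. RPS15A changed by -0.45 with the array and -0.09 without it. Over the 9 members inside the area, all 9 changes were negative at days 20 to 25 with a median of -0.36. Without array 4 the median was -0.09 and 7 of 9 were negative.

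RPS12, whose spots are both dim, gave the most positive values of the small subunit, and its spots differed. Levels of the brighter spot were -4.22, -3.79, -4.19 and -4.63 in cyclic cows and -2.88, -3.24, -4.15 and -3.78 at days 150 to 160. Cows 1, 2 and 4 of that stage lay above all cyclic cows and cow 3 within their range. The change was 0.69 (0.14 to 1.25, 1.62-fold, adjusted p = 0.119), and without cow 3 of that stage it was 0.90 with an adjusted p of 0.0453. At the earlier stages it was 0.50 and 0.46, with intervals that include 0. The second RPS12 spot changed by -0.12, -0.21 and 0.00 (-0.51 to 0.52 at days 150 to 160). Without array 4, the values at days 20 to 25 were 0.40 for the brighter spot and -0.17 for the second. The difference between the spots was not tested, and the strand of the second probe is in doubt.

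RPS19, the first gene found mutated in Diamond-Blackfan anaemia, changed by 0.16, -0.35 and -0.20, and RPS27 by -0.25, -0.25 and 0.04. RPS2 changed by -0.02, -0.23 and -0.27. RPS24 changed by 0.05, -0.04 and 0.10, and RPS4X by 0.04, 0.03 and 0.11. RPS27A, which is made as a fusion with ubiquitin, had levels between 5.40 and 6.01 on all 16 arrays and changed by 0.06, 0.01 and 0.08. RPS23 had values in only 2 cyclic cows (5.60 and 5.60) and in cows 2 and 3 of days 20 to 25 (5.30 and 5.48). Those pairs did not overlap, and the change was -0.21. Without array 4, the values at days 20 to 25 were -0.02 for RPS19, -0.28 for RPS27, -0.08 for RPS2, -0.09 for RPS24, -0.06 for RPS4X and -0.08 for RPS27A, so those of RPS19, RPS24, RPS4X and RPS27A turned from positive to negative. The paralogue RPS27L changed by 0.03, -0.09 and -0.05, and RPL3L, a form of RPL3 best known from muscle, by -0.06, -0.37 and -0.07. At days 20 to 25 both turned sign without array 4, to -0.06 and 0.02.

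A further 18 large-subunit members had changes of -0.14 (RPL37) to 0.13 (RPL3) at days 20 to 25, -0.20 (RPL24) to 0.05 (RPL36A) at days 40 to 45 and -0.24 (RPL7) to 0.09 (RPL36A) at days 150 to 160. The remaining 10 small-subunit members, RPS23 counted with them, ran from -0.21 (RPS23) to 0.08 (RPS14), from -0.17 (RPS18) to 0.05 (RPS10) and from -0.21 (RPS3A) to 0.09 (RPS14). The lowest adjusted p among these 28 genes was 0.623, 0.644 and 0.43 at the 3 stages. Array 4 moves the ends named for RPL37, RPL3 and RPS14 at days 20 to 25. RPL37 stood at 5.25 on it (others of that stage 5.58 to 5.59), RPL3 at 1.85 (1.22 to 1.37) and RPS14 at 7.52 (6.64 to 7.09). The ranges without it are not given here.

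Counted over all members, groups that did not overlap were found for 1 gene at each stage: RPS23 at days 20 to 25, RPL38 at days 40 to 45 and RPLP2 at days 150 to 160, each lower. Among all tested probes the groups did not overlap for 7.45%, 9.70% and 11.7%, so 1 of 58 lies below the background at every stage.

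Spots that share letters show how far 2 measurements of the same sequence can lie apart. The RPL24 spot and the second RPL30 spot, with identical letters at different places on the array, differed by -0.05 ± 0.09 (SD over 15 arrays). Their changes were -0.03 and -0.09 at days 20 to 25, -0.20 and -0.21 at days 40 to 45, and -0.14 and -0.17 at days 150 to 160. The RPS10 spots changed by 0.06 and 0.02, then 0.05 and 0.06, then 0.06 and 0.01. The first pair of values rests on array 4 of days 20 to 25. The RPS10 spots stood there at 7.05 (others of that stage 6.24 to 6.47) and 6.80 (6.23 to 6.27). RPS13 and a spot under another name share all 60 bases, but changed by -0.08 and -0.21 at days 40 to 45 and by -0.04 and -0.21 at days 150 to 160. RPL27 and a spot that shares 50 bases with it changed by -0.10 and -0.29 at days 40 to 45 and by -0.03 and -0.22 at days 150 to 160. For RPL8 the 2 spots, of different sequence, both changed by -0.24 at days 150 to 160. The spots of RPS15A lay farther apart: its brightest spot changed by -0.45 at days 20 to 25 and its second by 0.31 (0.07 to 0.56, adjusted p = 0.242). The second spot had levels of 0.34, 0.08, 0.17 and 0.15 in cyclic cows and 0.48, 0.41, 0.50 and 0.62 at that stage, with no overlap. It lies outside the dark area and has the same letters as a spot named PRXL2C, so its gene is uncertain.

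The large and small subunits had nearly the same median on every array. The large-subunit median minus the small-subunit median lay between -0.07 and 0.05 on each of the 16 arrays, while the member median itself ran from -0.24 (cow 2 of days 150 to 160) to 0.39 (array 4 of days 20 to 25). The difference was 0.01 to 0.03 in the 4 cyclic cows and -0.07 to -0.03 in the 4 cows of days 150 to 160. In the groups between it took both signs. The large-subunit changes had medians of -0.01, -0.09 and -0.09 at the 3 stages, with 17, 25 and 24 of 33 negative. The small-subunit changes had medians of 0.01, -0.08 and -0.03, with 10, 17 and 14 of 23 negative. Without array 4, the medians at days 20 to 25 were -0.10 and -0.09, with 26 of 33 and 20 of 23 negative.

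The members also shifted as a group from cow to cow within a stage. At days 40 to 45, 6 of 55 members with a value lay above their own mean in cow 1 and 50 of 57 in cow 4. At days 150 to 160, it was 7 of 56 in cow 2, 8 of 57 in cow 3 and 50 of 57 in cow 4. The SD between cows had a median over members of 0.16 in cyclic glands, 0.26 at days 20 to 25 (0.08 without array 4), 0.19 at days 40 to 45 and 0.25 at days 150 to 160. Over all tested probes it was 0.30, 0.25 (0.17 without array 4), 0.21 and 0.31. The part of array-wide brightness in these shifts was not tested, and some of the array medians change sign under quantile scaling.

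**Figure D4:**
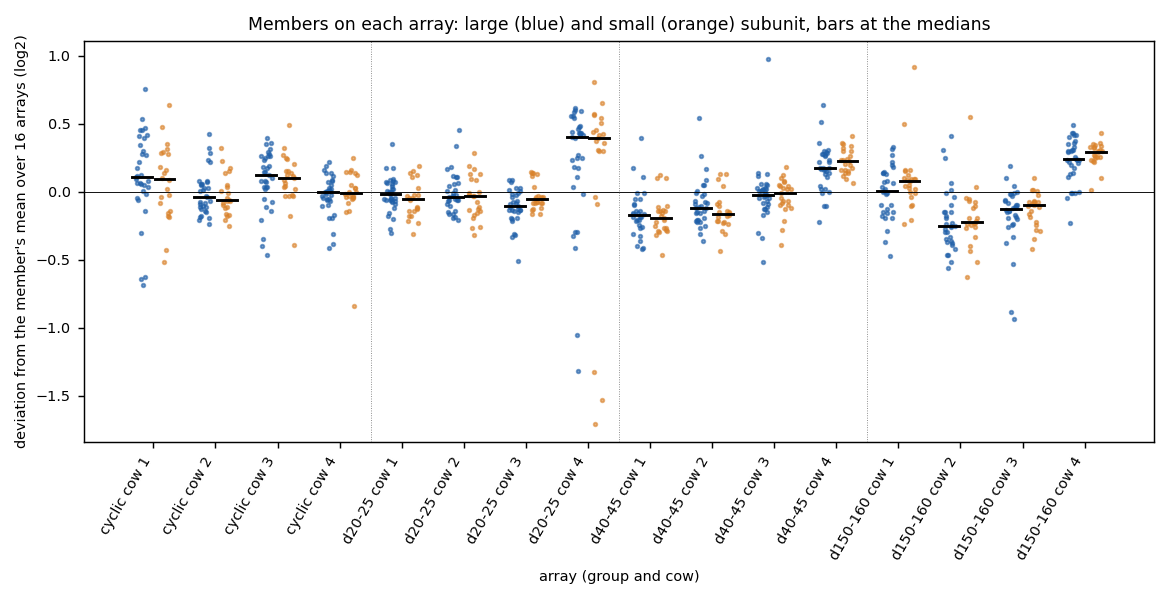
Deviation of each large-subunit (blue) and small-subunit (orange) member from its own mean over the 16 arrays (log2), by group and cow, with black bars at the medians. The large-subunit bar minus the small-subunit bar is between -0.07 and 0.05 on every array. The lowest points at days 20 to 25, cow 4 (RPS29, RPS6, RPS15A, RPL26 and RPL19), are members in the dark area. RPL4, which lies outside it, stands at -0.41 there.

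Between stages of pregnancy, 0 of 58 members were called. The background was 0.0335% of probes for days 40 to 45 against 20 to 25, 0.0419% for days 150 to 160 against 40 to 45, and 1.57% for days 150 to 160 against 20 to 25. Median changes were -0.08, 0.03 and -0.05. From days 20 to 25 to days 40 to 45, the most extreme values were 0.63 for RPL6, 0.56 for RPS29, -0.52 for RPS19 and -0.34 for RPL28, and the lowest adjusted p was 0.513. From days 40 to 45 to days 150 to 160 they were -0.40 for RPL6, -0.34 for RPL4, 0.30 for RPL3L and 0.29 for RPS27, and the lowest adjusted p was 0.629. From days 20 to 25 to days 150 to 160 they were 0.51 for RPS29, 0.47 for RPL26, -0.36 for RPS19 and -0.32 for RPL5, and the lowest adjusted p was 0.434. RPS29 and RPL26 lie in the dark area of array 4, and these values turn on that array. Without it, the median change against days 20 to 25 was 0.02 at days 40 to 45 and 0.03 at days 150 to 160, both of the opposite sign, and 0 of 58 were called (lowest adjusted p 0.788 and 0.404). At days 40 to 45 the values were then 0.69 for RPL6, 0.14 for RPS29, -0.34 for RPS19 and -0.21 for RPL28. At days 150 to 160 they were 0.08 for RPS29, 0.14 for RPL26, -0.18 for RPS19 and -0.17 for RPL5.

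RPL9, a protein of the large subunit, separated the slides and not the stages. Its levels were 0.33 to 0.82 on the 8 arrays of slide 1 (mean 0.48 ± 0.15 SD) and -0.87 to -0.15 on the 8 arrays of slide 2 (mean -0.35 ± 0.23 SD). No array of slide 2 reached the range of slide 1, and the means differed by 0.83. RPL9 was the only 1 of 58 members whose slides did not overlap, beside 1.73% of all tested probes. This count is not set apart from the background. Its changes between stages and cyclic glands were -0.09, -0.06 and -0.21, since each slide held 2 cows of every group. The other members leaned the opposite way: 47 of 58 were lower on slide 1, with a median difference of -0.17, against -0.02 over all probes. With the slide as a block the test called 0 of 58 at each stage, with lowest adjusted p of 0.312, 0.133 and 0.0862.

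A further 15 spots are named or described as ribosomal proteins, with no mention of the mitochondrion, but carry a symbol outside the rule, and were gathered after the values were seen. Of these, 14 were tested and 0 were called, with 0 at an unadjusted p under 0.05. Their changes ran from -0.27 to 0.12, -0.40 to 0.15 and -0.30 to 0.23 at the 3 stages.

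Other genes of translation were mostly without a call as well. Of the elongation factors 0 of 7 tested were called at any stage, and those with the lowest adjusted p were EEF1E1 (0.19 at days 150 to 160) and the release factor ETF1 (-0.18 at days 20 to 25). Among 8 ribosome-associated genes and other messages with a TOP motif, 0 were called, PFDN5 (0.19) and TPT1 (0.17) having the lowest adjusted p. Among 31 genes of ribosome assembly in the nucleolus 0 were called. SBDS, which frees new large subunits for use, changed by 0.49 (adjusted p = 0.161) and TSR2, a chaperone of RPS26, by 0.28 (adjusted p = 0.164) at days 150 to 160. Of 5 genes of the mTOR, S6 kinase and MYC axis 0 were called, and MLST8, a subunit of the mTOR complexes, was closest, at 0.60 (adjusted p = 0.0943) at days 20 to 25. AKT1, which acts upstream of mTOR, changed by -0.20 at days 150 to 160. Of 21 initiation factors, 0 were called at the first stages and 2 fell at days 150 to 160, where 7.98% of all tested probes were called (3.32% lower). EIF4G3, a scaffold of the cap-binding complex, fell by 0.96 (adjusted p = 0.0121), and PABPC1, the poly(A)-binding protein, whose own message has a TOP motif, fell by 0.59 (adjusted p = 0.0393).

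PABPC1 levels were 4.62, 4.68, 4.19 and 4.08 in cyclic cows and 4.01, 3.79, 3.55 and 3.87 at days 150 to 160. All 4 pregnant cows lay below the lowest cyclic cow. Its call held when 6 of the 16 arrays were left out in turn and was lost for the other 10, at changes of -0.61 to -0.49 and adjusted p of 0.0505 to 0.0966. Those were cyclic cows 1 and 2, cows 1 and 2 of days 20 to 25, cows 1 to 3 of days 40 to 45 and cows 2 to 4 of days 150 to 160. EIF4G3 levels were -4.25, -3.72, -3.81 and -3.86 in cyclic cows and -4.89, -4.74, -4.62 and -5.22 at days 150 to 160, again without overlap, and its call held without any 1 array. Among all tested probes these groups did not overlap for 11.7%.

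The mitochondrial ribosomal proteins, which build the separate ribosome of the mitochondrion, gave 3 calls among 45 tested, all lower at days 150 to 160. Over all tested probes 7.98% were called at that stage, 3.32% as lower, so these counts are not set apart from the background. MRPL44 fell by 1.20 (adjusted p = 0.0223), MRPS25 by 0.75 (adjusted p = 0.0157) and MRPL36 by 0.51 (adjusted p = 0.0231). For each of the 3, all cows of that stage lay below all cyclic cows, where the groups did not overlap for 11.7% of all tested probes. The call of MRPL44 was lost without cyclic cow 1, 2 or 4 or cow 1 of days 150 to 160 (-1.13 to -1.08, adjusted p 0.0539 to 0.065), that of MRPL36 without cyclic cow 4 or cow 1 or 2 of days 150 to 160 (-0.51 to -0.47, adjusted p 0.055 to 0.0639), and that of MRPS25 without cyclic cow 4 (-0.67, adjusted p = 0.0503). At that stage 40 of the 45 had a negative change, with a median of -0.21, against 47.3% of all tested probes and a median of 0.03. At days 20 to 25 and 40 to 45, 0 of 45 were called, and 30 and 33 were negative with medians of -0.10 and -0.09. Over all tested probes 42.9% and 47.8% were negative, with medians of 0.05 and 0.01. The difference from the cytosolic members, at 40 of 58 negative and a median of -0.07, was not tested.

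**Figure D5:**
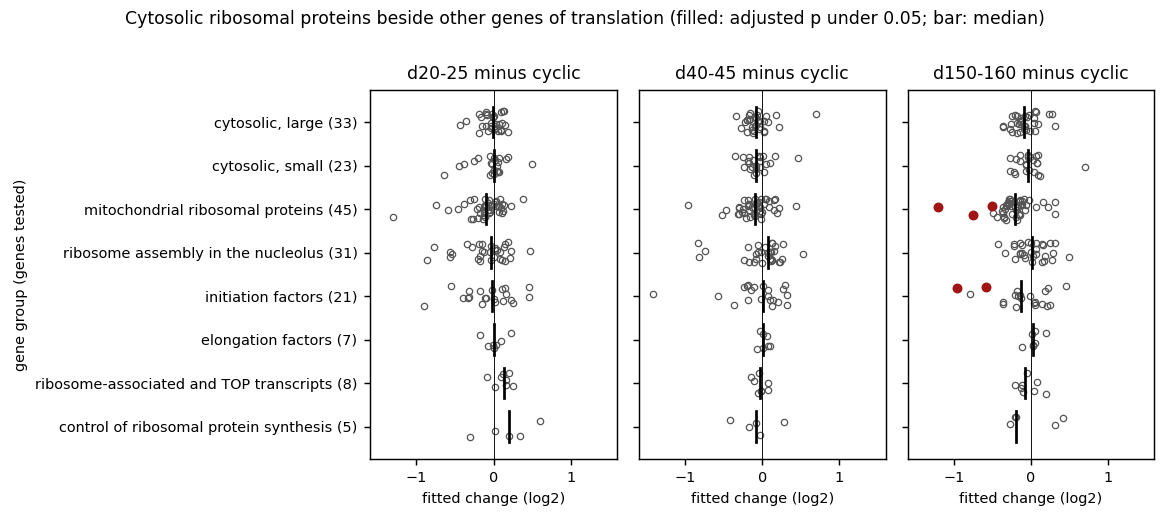
Fitted log2 change from cyclic glands at the 3 stages for the 33 large-subunit and 23 small-subunit members and for 6 other groups of translation genes, with filled points at adjusted p under 0.05 and bars at the medians. The only filled points are 3 mitochondrial ribosomal proteins and 2 initiation factors, all lower at days 150 to 160.

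Markers of the cell types of the gland also changed between the same groups, beside 4.66% of all tested probes called higher and 3.32% called lower at days 150 to 160. At days 150 to 160, 4 of 7 markers of fibroblasts and matrix and 2 of 10 of proliferation were called lower, with medians of -1.13 and -1.45, and 2 of 9 endothelial markers (ENG and TEK) were called higher. All 7 markers of fibroblasts and matrix and 9 of the 10 of proliferation had a negative change, against 47.3% of all tested probes. The endothelial markers took both signs: 2 of 9 were negative, among them VWF, which changed by -0.51 and was not called. Of 13 leukocyte markers, 1 was higher (ITGAM) and 1 lower (CD68). Of 9 luteal markers, OXT, the oxytocin gene, fell by 7.97 (adjusted p = 3.44e-07), PTGFR, the prostaglandin F receptor, rose by 0.85 (adjusted p = 0.0221), and 7 were not called. The part of these shifts in the ribosomal protein values was not tested.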

How the data were processed

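The data are 16 single-colour Agilent arrays of bovine luteal RNA, 1 per animal, as scanner output. Processed signal intensity was deposited by the authors as Agilent Feature Extraction 9.5 gave it, per the file headers and the submitters' processing notes. The authors also deposited a table of log2 values, which differs from log2 of that signal by 1 constant on each array (largest departure 0.0046), with a median per array of -3.18 to -2.98. It served as an alternative. RNA came from an RNeasy column, per the labels' protocols.

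Here 536 control spots and 220 outlier-flagged values were left out, and log2 of the processed signal was centred on the 75th percentile of each array. Probes well above background and without an outlier flag on 3 of 4 arrays of a group were tested (11941, and 11940 in contrasts with days 150 to 160) with limma 3.58.1 in R 4.3.3, by group, over all 16 arrays (12 residual degrees of freedom), with Benjamini-Hochberg adjustment. The steps were tested on simulated data. Slides hold cows 1 and 2, or 3 and 4, of each group, and the position on a slide is tied to the group. The number of arrays limits the precision.

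Other genes were named through RefSeq's table for the ARS-UCD2.0 assembly (names only), in which 6102 of 15208 probes had a symbol. The members and the gene lists were chosen with earlier results of these data known. Named are the 3 largest changes each way per subunit and stage, the 2 largest between stages, the P-stalk genes, RPS6, RPS27A and the paralogues, and any gene called. RPL9, RPS23 and the probe pairs were added after their values were seen. The values of 4 members are not reported here one by one, though the counts and medians include them. Alternatives covered scaling, background, filters, spots, slide, replicate number, array position and single arrays.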

Additional observations from a re-analysis of the deposited data

Results flagged for a closer look

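In 112 groups of 4 values checked, 14 held 1 value with a gap to its neighbours too wide for its group by Dixon's criterion at 95%. Chance alone gives about 1 in 20. Of the 14, 7 came from array 4 of days 20 to 25. In its dark area RPS29 stood at 3.57 (others 5.11 to 5.39), RPS6 at 3.19 (4.67 to 4.90), RPL26 at -2.33 (-1.04 to -0.94) and RPL19 at 4.42 (5.36 to 5.56). Outside that area the same array was high for RPL38 at 5.55 (4.91 to 5.02). The median deviation on that array was 0.40 over the small subunit (-0.06 to -0.03 on the others) and 0.39 over all members (-0.08 to -0.03).

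The other 7 were spread over 5 arrays. In cyclic glands RPL19 stood at 5.86 in cow 3 (others 5.41 to 5.48), RPL21 at -3.53 in cow 1 (-2.92 to -2.80) and RPS6 at 5.19 in cow 1 (4.63 to 4.69). At days 20 to 25 RPL3L stood at -5.39 in cow 3 (-6.31 to -6.18). At days 40 to 45 RPS6 stood at 5.07 (4.81 to 4.85) and RPS27 at -1.96 (-2.24 to -2.20), both in cow 4. At days 150 to 160 RPL28 stood at -6.52 in cow 3 (-5.45 to -5.40).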

How the results depend on the processing

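The counts of members called, 0 in each comparison, stayed at 0 in 227 recomputed values and moved in 3. Leaving out each array in turn gave 0 to 1 at days 40 to 45 and in the F test, where RPL6 was called without cow 1 of days 40 to 45. It gave 0 to 1 at days 150 to 160, where RPS12 was called without cow 3. The cause was not tested. All 192 recomputed subunit medians moved by less than the SD between cows of the pregnant group compared. Not all moved by less than the smaller cyclic SD. At days 20 to 25 the SD of the pregnant group is set largely by array 4, so that comparison says little there. The large-subunit median deviation was 0.40 on that array and -0.11 to -0.02 on the others of that stage. The sign of the recomputed medians was not fixed: at days 40 to 45 the large-subunit median ran from -0.22 to 0.02. Calls among the other translation genes at days 150 to 160 numbered 5. They numbered 0 within slide 1, 0 within slide 2, 1 with those groups alone, 2 to 5 with single arrays left out, and 8 with block medians by array position subtracted, an alternative chosen after seeing the data. At days 40 to 45 single arrays left out gave 0 to 1 such calls. With replicate numbers as a block, 0 members were called, with lowest adjusted p of 0.325, 0.109 and 0.105 at the 3 stages, and 5 other translation genes. The labels do not say that numbers pair animals: correlations of same-numbered arrays ran from 0.0009 to 0.291 (mean 0.108, 24 pairs), and 9 of 16 arrays correlated best with their own number. Same-numbered arrays also share a slide. Pairs of other numbers on the same slide ran from -0.0994 to 0.271 (mean 0.0637, 24 pairs), and pairs across slides had a mean of -0.086 (48 pairs). With 4 animals a group, calls at smaller changes are limited by the spread between cows.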
